A study of Mus musculus with 5 samples.

Results

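A set of 7 regulators of endoderm, gut and pancreas was followed through H3K27me3 peak lists of mouse embryonic fibroblasts (MEFs): Pdx1, Cdx1, Cdx2, Hnf4a, Onecut1, Prox1 and Mnx1. The 7 genes were chosen by name for their roles, not by a rule on their peaks, and all 7 were found once among 22350 protein-coding genes of GENCODE vM1 (mm9, chromosomes 1 to 19 and X). Chromatin immunoprecipitation followed by sequencing (ChIP-Seq) was available as peak lists of 3 libraries, 1 for each line, of the 5 libraries in the series. All 3 lines came from MEFs of a mouse embryo whose Eed gene, which codes for a subunit of Polycomb Repressive Complex 2 (PRC2), was floxed and undeleted. They were transduced with lentivirus for H3.3 K27R, H3.3 K27M or human EZHIP and selected with puromycin. By the study's methods the expression vector used an EF1a promoter. The parental Control cells and the EEDnull line, a single clone made with Cre, were not analysed here. K27M cells carry a histone with methionine at the lysine that PRC2 methylates, EZHIP is a PRC2 inhibitor of ependymoma, and K27R carries arginine at the same residue. The K27R list is the reference below, and it too comes from cells with a mutant histone.

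PRC2 places H3K27me3 on genes that a cell keeps silent, and in mammals it is drawn to CpG islands, stretches rich in the CG dinucleotide, from which the mark spreads. Regulators of other lineages are classic targets of the complex. Fibroblasts descend from mesenchyme and do not use the endodermal programme. Pdx1 is the homeobox factor needed for pancreas formation and beta cell function, and Mnx1 acts in the early pancreas and in motor neurons. Onecut1 (HNF6) acts in liver and in pancreatic progenitors, Prox1 in liver, pancreas and lymphatic endothelium. Cdx1 and Cdx2 are caudal homeobox factors of the intestine. Hnf4a is a nuclear receptor of liver, gut and pancreas and is transcribed from alternative promoters.

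The lists hold positions without read counts or scores. Depth is therefore unknown, no test between lines could be made, and all comparisons describe these 3 libraries. Whether the spike-in scaling entered the peak calls, and which library served as background, is not given in the sources used here. Widths and cover compared between the lists therefore cannot be told apart from differences in how each list was called. A peak list also cannot tell a mark lost in some cells from a weaker mark in every cell. The K27R list held 12845 peaks, that of K27M 3736 and that of EZHIP 4992, and they covered 22.1%, 1.93% and 1.38% of the chromosomes analysed. As a check on the cell type, 18 fibroblast markers were looked up. The start sites of 17 of them (94.4%), such as Col1a1, Col1a2, Vim and Dcn, lay outside all 3 lists, as did those of 69.8% of all protein-coding genes. Of the 17, Postn and Col6a1 had the most K27R cover within 50 kb (41.97 and 38.0 kb), followed by Thy1 and Twist1. The exception was Pdgfra, whose start lay in a peak of every list, with 56.28 kb of K27R, 11.8 kb of K27M and 7.0 kb of EZHIP cover around it.

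The sequences before the start sites are shown first, because the members differed widely in CG content there and because CpG islands are where PRC2 is drawn. Each line gives the 250 bases upstream of the annotated start in mm9 (NCBIM37), 5′ to 3′ on the strand of the gene, with every CG in capitals. Onecut1 (chr9:74709478-74709727, plus strand) held 31 CG, Mnx1 (chr5:29805060-29805309, minus strand) 20, Cdx2 (chr5:148118847-148119096, minus strand) 11, Pdx1 (chr5:148081285-148081534, plus strand) 5 and Hnf4a (chr2:163332294-163332543, plus strand) 1.
Onecut1: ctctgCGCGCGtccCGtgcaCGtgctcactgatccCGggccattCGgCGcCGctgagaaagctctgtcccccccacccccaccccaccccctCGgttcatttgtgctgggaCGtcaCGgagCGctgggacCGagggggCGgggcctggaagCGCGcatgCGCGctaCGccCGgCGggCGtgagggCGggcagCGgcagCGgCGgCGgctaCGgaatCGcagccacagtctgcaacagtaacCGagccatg
Mnx1: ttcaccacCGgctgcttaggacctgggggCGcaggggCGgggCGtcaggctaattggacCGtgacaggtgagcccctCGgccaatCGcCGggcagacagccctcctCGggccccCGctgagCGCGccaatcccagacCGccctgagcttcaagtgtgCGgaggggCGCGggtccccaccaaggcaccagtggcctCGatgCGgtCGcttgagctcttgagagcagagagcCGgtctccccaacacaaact
Cdx2: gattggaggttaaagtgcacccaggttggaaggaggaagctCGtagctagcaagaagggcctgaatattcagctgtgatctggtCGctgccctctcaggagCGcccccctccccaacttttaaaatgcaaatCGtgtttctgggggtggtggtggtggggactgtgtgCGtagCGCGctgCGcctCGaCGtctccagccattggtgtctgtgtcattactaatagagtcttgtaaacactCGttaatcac
Pdx1: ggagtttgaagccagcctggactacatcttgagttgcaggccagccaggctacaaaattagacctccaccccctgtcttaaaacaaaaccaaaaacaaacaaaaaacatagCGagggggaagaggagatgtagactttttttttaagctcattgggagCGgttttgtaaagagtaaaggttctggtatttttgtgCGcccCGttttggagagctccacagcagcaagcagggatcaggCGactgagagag
Hnf4a: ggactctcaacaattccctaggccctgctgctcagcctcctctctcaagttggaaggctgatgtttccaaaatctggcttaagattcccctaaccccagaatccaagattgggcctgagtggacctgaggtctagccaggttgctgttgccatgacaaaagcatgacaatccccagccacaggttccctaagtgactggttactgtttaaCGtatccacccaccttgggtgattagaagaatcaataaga

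The median over all protein-coding genes was 8 CG in the same window, and Hnf4a had more than only 7.53% of them. Prox1 held 12 CG and Cdx1 30, and their sequences are not printed here. The Prox1 window reaches past an upstream RefSeq start, so that part of it lies in a transcript of that annotation. A computed CpG island lay within 1000 bp of the start site in 6 of the 7 members, against 55.1% of all protein-coding genes. Hnf4a was the exception, with its nearest island 34.1 kb away. The Pdx1 island began 0.179 kb downstream of the start, so that the few CG in the sequence above lie outside it.

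The first comparison asked whether H3K27me3 lay over the start sites in the reference line and whether it was still called there in cells with either inhibitor. In K27R, 6 of the 7 start sites lay in a peak, where 30.1% of all protein-coding start sites did. Of the 7 members, 5, namely Pdx1, Cdx2, Onecut1, Prox1 and Mnx1, also had their start in a K27M peak, against 9.02% of all genes. The same 5 had it in an EZHIP peak, against 7.73% of all genes. A start in both inhibitor lists was found for 6.6% of all genes. Among the 6735 genes whose start lay in a K27R peak, 21.9% had it in both inhibitor lists and 66.5% in neither. Of the 6 members of that class, 5 were in both lists and 1, Hnf4a, in neither. Cdx1 had its start in no list. The members were chosen as a family with earlier results of these data known, so that the counts are set beside the background shares with no test.

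**Figure D1:**
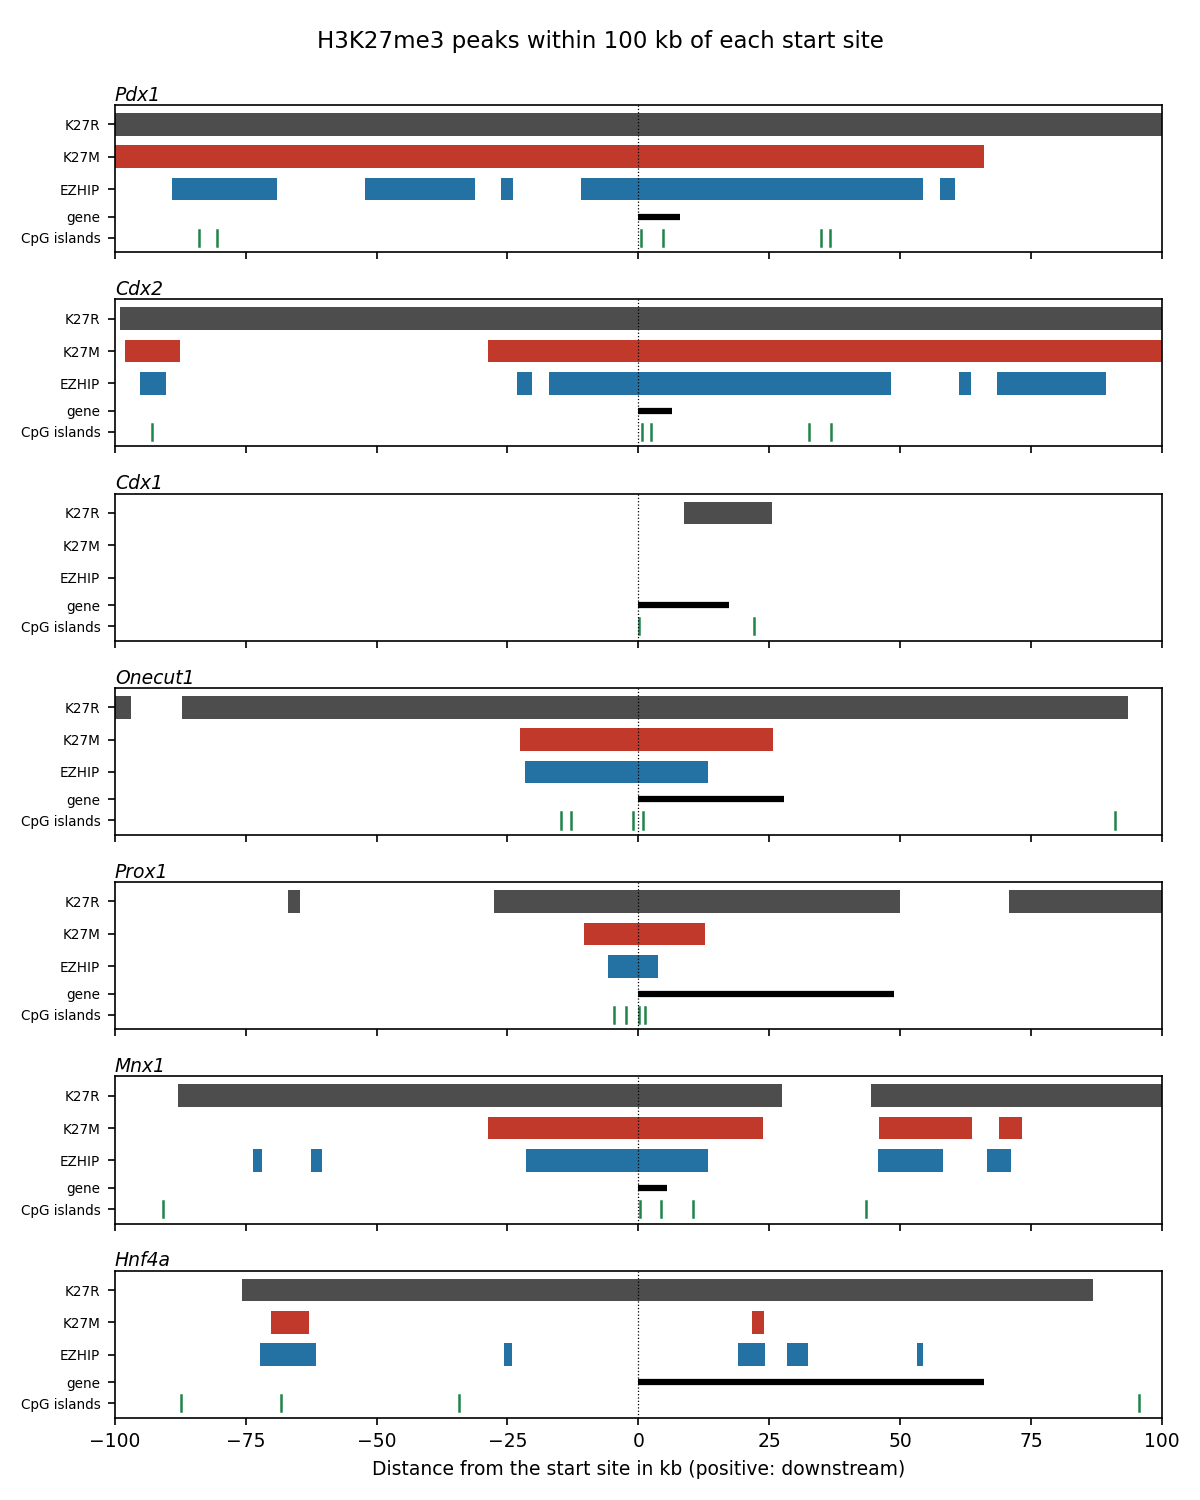
Peaks of the K27R (grey), K27M (red) and EZHIP (blue) lists within 100 kb of each start site, drawn by distance from the start in kb with transcription to the right, the gene as a black line and CpG islands as green ticks. The plot shows 5 members that keep a peak over the start in both inhibitor lists, Hnf4a with short peaks away from its first start, and Cdx1 with a K27R peak only, 8.653 kb downstream.

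The amount of H3K27me3 around each start was measured as the length covered by peaks within 50 kb on each side. For Pdx1 the K27R and the K27M peaks each filled the 100 kb window, and EZHIP peaks covered 82.2 kb. For Cdx2 the cover was 100 kb with K27R, 78.75 kb with K27M and 68.2 kb with EZHIP. These were the members with the least reduction, and they share a region. Cover around Mnx1 was 83.0 kb with K27R, 56.54 kb with K27M and 38.94 kb with EZHIP. Around Onecut1 it was 100 kb, 48.2 kb and 35.0 kb in the same order, and around Prox1 77.6 kb, 23.2 kb and 9.6 kb. Hnf4a stood apart, since its window was as full as that of Pdx1 in K27R, with 100 kb, and held 2.4 kb in K27M and 10.8 kb in EZHIP. Cdx1 had 16.8 kb in K27R and no cover in either inhibitor list. The medians over all genes with a start in a K27R peak were 71.607 kb (K27R), 1.467 kb (K27M) and 1.2 kb (EZHIP). Those over the 1476 genes with a start in all 3 lists were 81.6, 17.2 and 13.2 kb.

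K27M left more cover than EZHIP around 5 members, EZHIP more than K27M around Hnf4a, and Cdx1 had neither. Over all genes with a K27R start and some residual cover, 61.8% had more in K27M. The lists differ in the shortest gap they leave between peaks, 5200 bp in K27M and 1200 bp in EZHIP. With all peaks joined across gaps of 10000 bp or less, K27M still exceeded EZHIP by 13.0 kb at Pdx1 and 7.355 kb at Cdx2, against 17.8 and 10.55 kb as deposited. At Hnf4a the difference of K27M less EZHIP went from -8.4 to -12.6 kb. Within 10 kb of the start the lists no longer differed at Pdx1, Cdx2, Onecut1 and Mnx1, where both filled the window, and Prox1 alone had more in K27M.

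**Figure D2:**
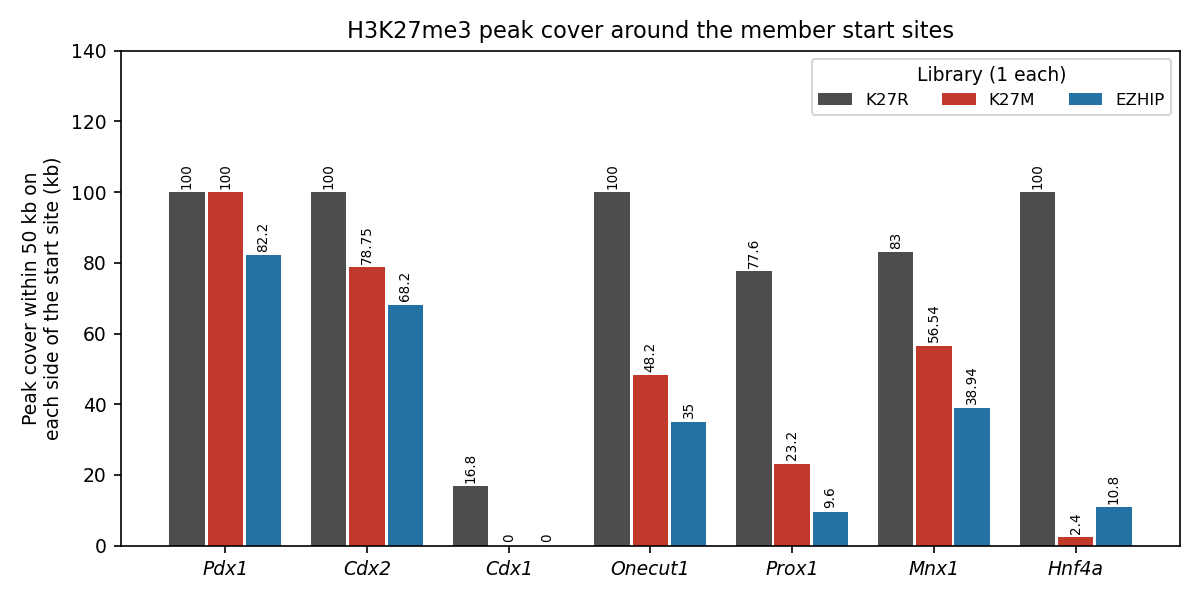
Length covered by H3K27me3 peaks within 50 kb on each side of the start site (kb, bars from 0) in the K27R, K27M and EZHIP libraries, 1 library each, so that no error bars can be drawn. Cover falls in the order K27R, K27M, EZHIP for Cdx2, Onecut1, Prox1 and Mnx1, is 100 kb in both K27R and K27M for Pdx1, and is higher in EZHIP than in K27M only for Hnf4a, with 10.8 against 2.4 kb.

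Peak width over the start site gave the same order, but it is not independent of cover. At Prox1 the 2 measures had the same values. The K27R region over Pdx1 and Cdx2 spanned 293.4 kb, the K27M peak 170.2 kb and the EZHIP peak 65.4 kb, so that the inhibitor peaks were 1.72-fold and 4.49-fold narrower. This K27M peak was wider than 99.36% of the K27M peaks that hold a start site, and this EZHIP peak wider than 99.11% of the EZHIP ones. Mnx1 peaks spanned 115.4, 52.6 and 34.8 kb in K27R, K27M and EZHIP, which is 2.19-fold and 3.32-fold narrower than K27R. Onecut1 peaks spanned 180.6, 48.2 and 35.0 kb, or 3.75-fold and 5.16-fold narrower. Prox1 peaks went from 77.6 kb to 23.2 kb in K27M and 9.6 kb in EZHIP, or 3.34-fold and 8.08-fold. Onecut1 thus had the strongest narrowing of these 5 in K27M and Prox1 in EZHIP. For comparison, the median over 1337 sets of peaks that share a start site was 7.96-fold in K27M and 11.8-fold in EZHIP. All 5 members therefore lost less width than the median of these sets. K27M peaks were 1.38-fold (Onecut1) to 2.6-fold (Pdx1 and Cdx2) wider than EZHIP peaks, where the median was 1.42-fold. In each of the 5 the EZHIP peak lay wholly inside the K27M peak and that inside the K27R region, as in 66.9% of the 1476 genes with a start in all lists.

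Pdx1 and Cdx2 lie 37.31 kb apart on chromosome 5 (148081535 to 148089584, plus strand, and 148112381 to 148118846, minus strand) in the ParaHox cluster with Gsx1, a homeobox gene of the brain. They share the peak over their starts in every list and are not independent observations. The K27R region ran from 147924401 to 148217800 and held 5 start sites, those of Gsx1, Pdx1, Cdx2, Prhoxnb and Flt3. All 5 start sites lay in peaks of both inhibitor lists. K27M left 3 peaks over 194.8 kb of the region (66.4%), the main one spanning Gsx1 to Prhoxnb (147977401 to 148147600). EZHIP left 8 peaks over 121.4 kb (41.4%). These peak counts are not alike, since the shortest gap is 5200 bp in the K27M list and 1200 bp in the EZHIP list. The widest EZHIP peak held Pdx1, Cdx2 and Prhoxnb (148070601 to 148136000). Gsx1, at -81.26 kb from the Pdx1 start, had a separate peak of 20.2 kb (147992401 to 148012600). Another EZHIP peak of 21.0 kb (148029401 to 148050400) lay between them over no start site and no island. Flt3, a receptor gene of blood progenitors, had 10.95 kb of its 69.749 kb body covered in K27M, at its start and its far end, and 3.065 kb in EZHIP, at its start. The coding sequences of Pdx1 (852 bp) and Cdx2 (933 bp) were covered in full in every list.

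**Figure D3:**
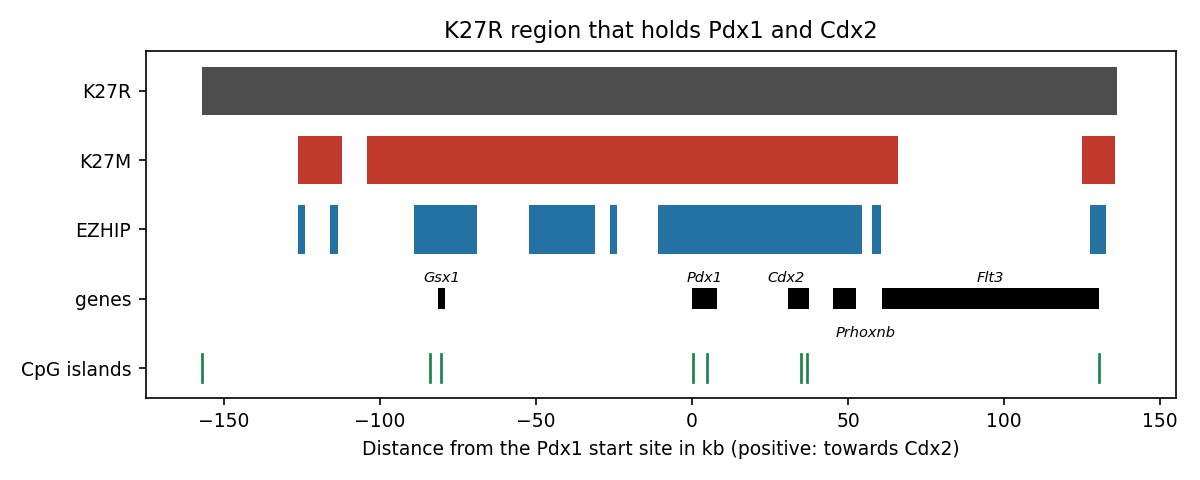
Peaks of the 3 lists, genes (black) and CpG islands (green) along the 293.4 kb K27R region that holds Pdx1 and Cdx2, by distance from the Pdx1 start in kb. The K27M list keeps a 170.2 kb peak from Gsx1 past Prhoxnb. The EZHIP list has separate peaks over the same stretch, the widest of 65.4 kb over Pdx1, Cdx2 and Prhoxnb. Some EZHIP gaps there are shorter than 5200 bp, the shortest gap in the K27M list.

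Mnx1 (chromosome 5, 29799578 to 29805059, minus strand) had the only protein-coding start site in its K27R region of 115.4 kb. The K27M peak reached 28.74 kb upstream and 23.86 kb downstream of the start, and the EZHIP peak 21.54 and 13.26 kb. Both covered the whole gene. Beyond it, 45.86 to 73.26 kb downstream, each inhibitor list had 2 further peaks in a neighbouring K27R region. Between both regions the start of Nom1, a nucleolar protein gene 43.85 kb away, lay outside every list and was 0.604 kb from the nearest K27R peak, 2.204 kb from K27M and 2.004 kb from EZHIP. The start of Ube3c, a ubiquitin ligase gene at -90.72 kb, lay in no list either. In the K27R region of Mnx1 itself, EZHIP had 3 peaks and K27M 1. The EZHIP peaks without a K27M counterpart spanned 2.2 kb (-62.54 to -60.34 kb) and 1.6 kb (-73.54 to -71.94 kb).

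Onecut1 (chromosome 9, 74709728 to 74737591, plus strand) lay in a K27R region of 180.6 kb, of which K27M covered 26.7% and EZHIP 19.4%, each with 1 peak around the start. Upstream the peaks ended close together, 22.53 kb from the start in K27M and 21.73 kb in EZHIP. Downstream the K27M peak reached 25.67 kb and the EZHIP peak 13.27 kb, so that 92.1% of the gene was covered in K27M and 47.6% in EZHIP. The first exon, with 1105 of 1395 coding bases, was in both peaks and the last exon in neither. BC031353, with its start 90.96 kb downstream in the same K27R region, had it in no inhibitor peak.

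Prox1 (chromosome 1, 191945660 to 191994559, minus strand) kept the narrowest EZHIP peak of the 5. The K27R peak covered the whole gene of 48.9 kb. The K27M peak covered 26.1% of it and the EZHIP peak 7.69%. K27M reached 12.76 kb into the gene, over 2 of 5 exons and 1725 of 2211 coding bases. EZHIP reached 3.758 kb, over the first exon alone and 0 coding bases. The start of no other protein-coding gene model lay within 100 kb.

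Hnf4a (chromosome 2, 163332544 to 163398646, plus strand) was wholly inside a K27R region of 162.6 kb (163256801 to 163419400), like 20.1% of all genes and like the other members apart from Cdx1. The K27M list left 5.9% of this region and the EZHIP list 14.0%. In K27M only a 2.4 kb peak lay in the gene, 21.66 to 24.06 kb downstream of the first start and over no exon. EZHIP had a 5.2 kb peak at the same place, from 19.06 to 24.26 kb. It had another of 4.0 kb over an exon, from 28.46 to 32.46 kb, and a further one of 1.2 kb between exons. A 1.6 kb EZHIP peak lay upstream of the gene, from -25.74 to -24.14 kb. None of these held a CpG island. Hnf4a has 6 annotated protein-coding transcripts. The start of one of them, Hnf4a-202, whose annotated model begins at its start codon 30.21 kb downstream of the first start, lay in the 4.0 kb EZHIP peak and 6.155 kb from the K27M peak. The other 5 starts lay 7.923 to 19.06 kb from the nearest EZHIP peak and 16.32 to 21.66 kb from the nearest K27M peak. Counting any annotated start therefore put 6 of the 7 members in EZHIP peaks and left 5 in K27M peaks.

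Residual peaks in this region were larger at a neighbour than at Hnf4a. Gdap1l1, at -68.33 kb, kept its start in a K27M peak of 7.2 kb and an EZHIP peak of 10.8 kb, which held a CpG island. Fitm2 (-34.18 kb), 2310001K24Rik (-34.22 kb) and R3hdml (-14.49 kb) had their starts in the K27R region and in neither inhibitor list. The starts of 3230401D17Rik and Ttpal lay outside all lists.

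**Figure D4:**
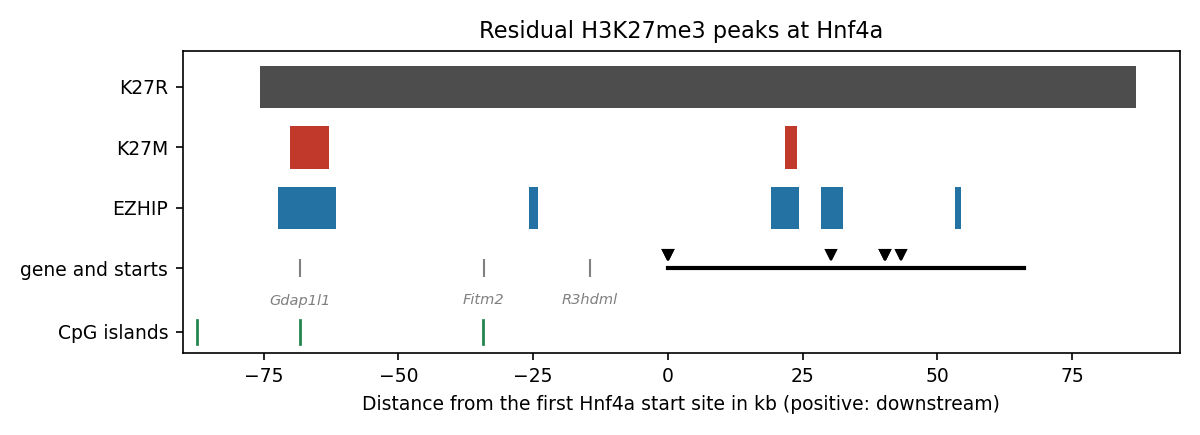
Peaks of the 3 lists around Hnf4a by distance from its first start in kb, with annotated starts as triangles, starts of upstream neighbours as grey marks and CpG islands in green. The K27R peak spans the gene, no inhibitor peak lies over the first start, and the peaks inside the gene (2.4 kb in K27M, 5.2, 4.0 and 1.2 kb in EZHIP) hold no island.

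Cdx1 (chromosome 18, 61178516 to 61195853, minus strand) differed from its paralog Cdx2 in every list. Its start lay 8.653 kb outside the nearest K27R peak, although a CpG island overlapped it. That peak of 16.8 kb covered the far 50.1% of the gene, with 359 of its 804 coding bases, and ran on over the start of Slc6a7, a proline transporter gene 22.0 kb downstream. The nearest K27M and EZHIP peaks were 748.1 and 746.5 kb away. On the other side, at -8.951 kb from the Cdx1 start, lies the start of Pdgfrb, a growth factor receptor and fibroblast marker, which was outside all lists, as was Csf1r. Whether Cdx1 was transcribed in these cells was not tested.

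In all, 15 protein-coding genes that are not members had a start within 100 kb of one. Of these, 9 had it in a K27R peak, against 30.1% of all protein-coding genes. In both inhibitor lists were 4 (Gsx1, Prhoxnb, Flt3 and Gdap1l1), against 6.6%, and in no list 6, against 69.8%. All of the 9 but Slc6a7 lay in a K27R region over a member start. Gsx1 and Prhoxnb also lay under the K27M peak of Pdx1 and Cdx2. The counts are therefore not independent of the members.

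The share of CpG islands that kept a peak was then measured in the 5 K27R regions over member starts. These regions held 22 islands, of which 19 (86.4%) overlapped a K27M peak and 19 an EZHIP peak. Among all 6822 islands in K27R regions, 45.2% overlapped a K27M peak and 38.2% an EZHIP peak. The islands at the 5 retained starts lie under the peaks already counted there. Several also share 1 peak, with 6 under the K27M peak over Pdx1 and Cdx2 and 4 under that of Prox1. The island shares therefore are not independent of the start-site counts. The 3 islands in neither list were centred at -156.9 kb from Pdx1, at -34.35 kb from Hnf4a and at 91.08 kb from Onecut1. The 4 islands of Prox1 were centred between -4.575 and 1.266 kb from its start, all under the 9.6 kb EZHIP peak. The presence of an island also went with a retained start over all genes. Of K27R genes with an island, 39.3% had the start in both inhibitor lists, and of those without, 6.94%. The 5 members that kept it were in the first class and Hnf4a in the second, and the part of islands in this was not tested.

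Other factors of endoderm and pancreas were examined in a list of 43 genes drawn up for their roles. The list includes Gsx1, named above as a homeobox gene of the brain. Gsx1 shares its K27R region and K27M peak with Pdx1 and Cdx2 and is not independent of these members. A K27R peak covered the start of 36 (83.7%), against 30.1% of all protein-coding genes. Both inhibitor lists held that of 27 (62.8%), against 6.6%. K27M alone held 6 (14%), against 2.41%, and EZHIP alone 1 (2.33%), against 1.13%. Another 2 (4.65%), against 20%, were in K27R only. In both lists were Foxa2, Gata4 and Foxa1, which open or activate endoderm genes, and Neurog3, Ptf1a, Nkx2-2 and Nkx6-1 of the pancreas. Within 50 kb of the Foxa2 start, K27R peaks covered 100 kb, K27M peaks 60.4 kb and EZHIP peaks 56.6 kb. At Gata4 the cover was 100, 77.47 and 46.4 kb in the same order. Among factors in K27M peaks alone, Sox9 had 5.4 kb in K27M, Hhex 2.6 kb and Eomes 6.0 kb, and none of these 3 had cover in EZHIP. Cdx4, a paralog of Cdx1 and Cdx2 on chromosome X, had 100 kb in K27R and in K27M and 1.4 kb in EZHIP. The Cdx4 start lay only 0.264 kb from an EZHIP peak. Nr0b2 was in K27R only, as Hnf4a was, with 5.0 kb of K27M and 4.4 kb of EZHIP cover near it. Those peaks ended 1.091 kb (K27M) and 0.291 kb (EZHIP) from the Nr0b2 start. Of the 36 factors with a K27R start and residual cover, 33 had more K27M than EZHIP cover, against 61.8% of all such genes. Bhlha15, Isx and Glis3 were among the 7 with a start in no list.

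Genes that carry out the work of the differentiated organs were counted in the same way. Of 16 liver effector genes, 0 had their start in a K27M or EZHIP peak, against 9.02% and 7.73% of all genes. With 16 genes, a count of 0 is close to these shares. In a K27R peak were 13 (81.2%), against 30.1% of all genes. They included Alb (albumin) and its neighbour Afp, each with 100 kb of K27R cover, none from K27M and 3.2 kb from EZHIP. The clotting factor gene F9 and the urea cycle gene Otc, both on chromosome X, had 100 kb in K27R and none in the others. Apob, Apoa2 and Cyp7a1, the rate-limiting enzyme of bile acid synthesis, had their starts in no list. Of 22 pancreas effector genes, 11 were in K27R peaks and 3 in both inhibitor lists, namely Sst (somatostatin) and the neighbouring hormone genes Ppy and Pyy. At Sst the cover was 96.07, 13.4 and 11.2 kb in the order K27R, K27M, EZHIP, and at Ppy 81.0, 48.2 and 21.6 kb. Pcsk2 was in K27R and K27M peaks. The start was in K27R alone at Pcsk1, a prohormone convertase, G6pc2 and Chga, which had 90.6, 63.0 and 56.4 kb of K27R cover and none in either inhibitor list. So it was at Cela1, a pancreatic elastase, with 12.45 kb in K27M and 27.8 kb in EZHIP nearby. No list held the starts of Ins1, Ins2, Gcg, Amy1, Ghrl, Cel, Cpb1 or Prss1. Ins2 lies in the last 7.73 Mb of chromosome 7, in which no list had any peak. Of 13 intestine effector genes, 5 were in K27R peaks and 1, the peptide transporter Slc15a1, in both inhibitor lists, while Krt20, Gucy2c, Fabp1 and Tff3 were in K27R only, and Alpi, Guca2a, Fabp2 and Vil1 were among the 8 in none. Over these 3 groups of effectors, 29 of 51 effector genes (56.9%) had a K27R start, against 30.1% of all genes. A start in both inhibitor lists was found for 4 (7.84%), near the 6.6% of all genes. Among effectors with a K27R start it was 4 of 29, against 21.9% of all genes with a K27R start. An island lay near the start of 4 of the 51 and of 31 of the 43 factors. Among effectors with a K27R start and no island, 0 of 13 liver, 1 of 7 pancreas and 1 of 5 intestine genes had the start in both inhibitor lists, beside the 6.94% of all such genes. Of pancreas effectors with a K27R start and an island, 2 of 4 were in both lists, and 0 liver or intestine genes were in that class. Factors with a K27R start had it in both lists in 23 of 27 cases with an island and 4 of 9 without. The shares over all such genes were 39.3% with an island and 6.94% without. The difference between effectors and factors was not tested, and most effectors differ from most factors in having no island.

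**Figure D5:**
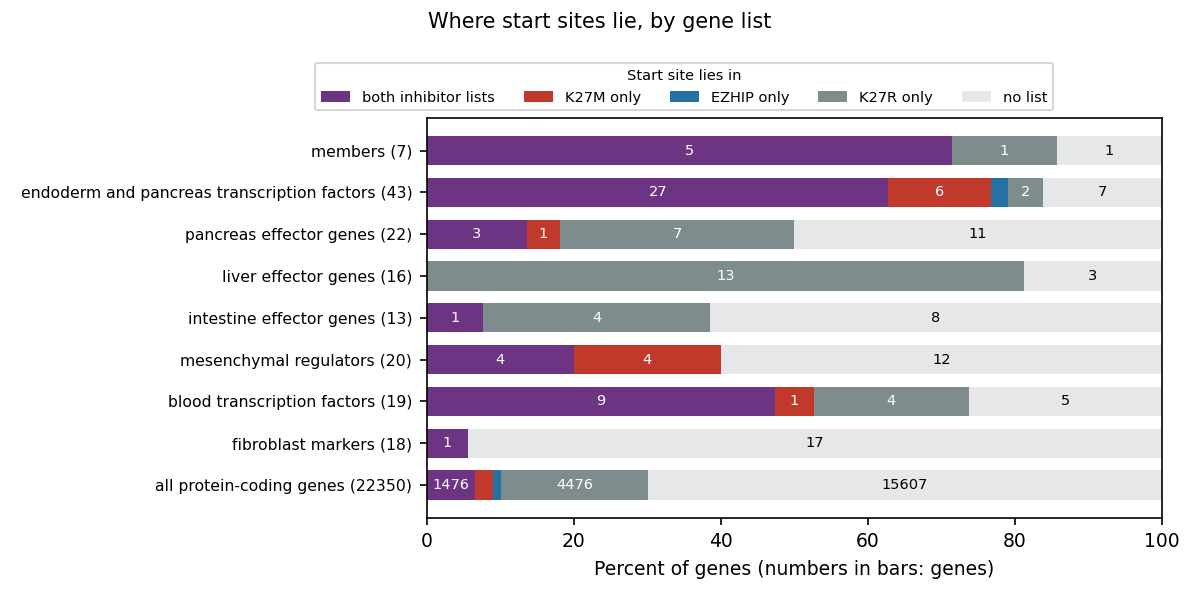
Percent of genes in each list whose start site lies in both inhibitor lists (purple), in K27M only (red), in EZHIP only (blue), in K27R only (grey) or in no list (pale), with gene numbers in the bars. The 7 members and the 43 other endoderm and pancreas factors are mostly in both inhibitor lists, where 6.6% of all protein-coding genes are. Of the 16 liver effector genes 0 are in both, which is close to that share. Of the 18 fibroblast markers 17 are in no list, against 69.8% of all genes.

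Regulators of mesenchyme, from which fibroblasts descend, and of blood were counted for scale. Of 20 mesenchymal regulators, 8 (40%) had a K27R start and 4 (20%), namely Hand1, Hand2, Meox2 and Tcf21, were in both inhibitor lists. Foxc2, Foxd1, Alx4 and Nfatc1 were in K27M but not EZHIP peaks. The other 12, with Meox1, Tbx18, Twist2 and Twist1 (also a fibroblast marker here) among them, were in no list. Of 19 blood transcription factors, 14 (73.7%) had a K27R start and 9 (47.4%), such as Gata2, Ikzf1, Ikzf3 and Lmo2, were in both. Among all protein-coding genes, 30.1% had a K27R start and 6.6% a start in both inhibitor lists. Cebpa was in K27M but not EZHIP peaks, Cebpe, Tcf7, Gata1 and Ebf1 in K27R only, and Klf1, Runx3, Spi1, Lyl1 and Runx1 in no list. Some of these calls were close, since the starts of Cebpa, Foxd1 and Nfatc1 lay 0.289, 0.6 and 0.81 kb from an EZHIP peak. Those of Foxc2 and Alx4 lay 32.67 and 213.5 kb away. With a distance of 5000 bp allowed, 6 mesenchymal regulators were in both inhibitor lists. The shares of these lists were not tested against that of the members.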

How the data were processed

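The authors made 1 H3K27me3 ChIP-Seq library per line from crosslinked, MNase-digested chromatin with spike-in chromatin of another species. Reads were aligned with Bowtie 1.0.0 (per the submitters' processing notes) to mm9 and the spike-in genome (dm6 in the same notes). Broad peaks were called per library by the authors with MOSAiCS-HMM at a set false discovery rate, gap, minimum size and threshold. Whether the calls used the spike-in scaling is not given in the sources used here. The deposited lists give chromosome, start and end only, on a grid of 200 bp bins, with no count or score, so that depth and its error are unknown. Control and EEDnull were not analysed here.

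Here, peaks were set against the mm9 sequence and GENCODE vM1 without conversion. A start site was the 5′ end of a protein-coding gene model, in a peak when sharing at least 1 bp. Starts of non-coding genes were not looked up. Covered length was counted in the gene body and within 50 kb on each side. CpG islands (27075) were found by scoring 17 for each CG and -1 for other bases, keeping segments over 200 bp with G+C of at least 50% and observed to expected CpG above 0.6. No test was made. A list's genes were named if 5 or fewer shared a state, and otherwise up to 4 with most K27R cover (ties by name). Foxa1, Neurog3, Ptf1a, Nkx2-2, Nkx6-1, Ins1, Ins2, Gcg and Amy1, and Col1a1, Col1a2, Vim and Dcn, were named for their known roles after their values were seen, and 2 list genes with several models were taken by the longest. Of the 20 blood factors 19 matched. Some genes that this rule names are not reported here. Members and lists were chosen with earlier results of these data known. The interval tools gave 0 disagreements in 6000 simulated comparisons. The island finder recovered 100% of 200 islands planted in simulated sequence whose background CG had been removed. That easy setting does not measure its accuracy on the mm9 sequence. Alternatives were a distance of 5000 bp, any annotated start, minimum widths of 2000 and 5000 bp, merging up to 10000 bp, and windows of 10 and 100 kb. Python 3.11.15, numpy 2.4.6, scipy 1.17.1, numba 0.67.0 and matplotlib 3.10.9 were used.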

Additional observations from a re-analysis of the deposited data

How the results depend on the processing

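The counts of members with a start in K27R, K27M and EZHIP peaks stayed within 1.5 times under every alternative tried: 6 and 5 throughout for K27R and K27M, and 5 for EZHIP except 6 when any annotated transcript start was used. More K27M than EZHIP cover was found at 5 members under 4 of the 5 alternatives and at 1 with windows of 10 kb, since both lists then filled the window at 4 members. The count of intestine effector genes in both inhibitor lists went from 1 to 0 with peaks of at least 5000 bp. The share of all genes with a start in a peak moved past its 95% exact binomial interval, from 30.1% to 38.24% in K27R, from 9.02% to 11.41% in K27M and from 7.73% to 11.24% in EZHIP with a distance of 5000 bp. With any annotated start it moved to 31.1%, 9.548% and 8.327%. Peaks of at least 5000 bp moved it to 7.405% in K27M and 5.96% in EZHIP. No direction between K27M and EZHIP at a member was reversed. With 1 library per line and no read counts, replicate spread and depth could not be assessed. No paired analysis was possible because the result comes from no test.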
